A study of Rattus norvegicus with 8 samples.

Results

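The Cyp2b cytochromes are a family of liver monooxygenases, and in rats they are the classical targets of phenobarbital-like inducers. Their induction runs through the constitutive androstane receptor (CAR, encoded by Nr1i3), a nuclear receptor that moves into the hepatocyte nucleus, pairs with a retinoid X receptor and binds enhancers upstream of its target genes. The related pregnane X receptor (PXR, encoded by Nr1i2) shares many of these targets, among them Cyp3a enzymes. The family was taken as every array probe whose RefSeq accession maps to Cyp2b1, Cyp2b2, Cyp2b3, Cyp2b12 or Cyp2b21. This gave 6 of the 30367 probes on the array, for 4 of the 5 genes: 2 probes for Cyp2b2, 2 for Cyp2b3, 1 for Cyp2b12, 1 for Cyp2b21 and 0 for Cyp2b1. The genes were chosen with their response in these data known, so their difference between diets is described with values and no p-value, and calls of the fit across all features are given for them only as counts.

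Liver messenger RNA came from adult male Sprague-Dawley rats given for 28 days either a diet that held 50 mg/kg of perfluorooctanesulfonate (PFOS), a fluorinated surfactant, or a control diet. Each diet had 4 rats and each rat 1 two-colour array, with liver RNA in the Cy5 channel. The Cy3 channel of every array held the same commercial pool of rat RNA. All 8 arrays lay on 1 slide, in 2 rows that each held 2 arrays of each diet. Median Cy5 signals per array were 116 to 160 units over a local background of 71 to 75 units, with the arrays of slide row 1 at 154.5 to 160 and those of slide row 2 at 116 to 138. With 8 arrays, a log2 change had a standard error of 0.11 at the median of all tested features, which sets the precision. In whole liver, fewer cells of a type and less RNA per cell cannot be told apart.

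The 5 genes lie together on chromosome 1, and the RefSeq table of the GRCr8 assembly gives the bases just upstream of each. They are printed because Cyp2b2, Cyp2b3 and Cyp2b21 differ in their response while the upstream windows of all 5 genes align with each other. The response of Cyp2b1, which had no probe, and of Cyp2b12, which was at background, is not known here. Each window ends before the first annotated base of its gene, reads 5′ to 3′ on the gene's strand, and has any match to either of 2 short runs in capitals. The first, TTGCATAA, resembles the sites that C/EBP factors bind, and the second, ATAAAAG, resembles a TATA box. Positions are chr1:90645869-90646097 (plus strand) for Cyp2b1, chr1:90722031-90722242 (plus) for Cyp2b2, chr1:90780242-90780467 (plus) for Cyp2b3, chr1:91135044-91135293 (plus) for Cyp2b12 and chr1:91042753-91043002 (minus) for Cyp2b21.
Cyp2b1: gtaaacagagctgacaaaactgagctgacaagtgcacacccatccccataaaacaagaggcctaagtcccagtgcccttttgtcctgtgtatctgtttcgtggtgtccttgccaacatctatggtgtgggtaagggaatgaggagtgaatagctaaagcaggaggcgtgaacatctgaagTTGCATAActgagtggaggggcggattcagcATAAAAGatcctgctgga
Cyp2b2: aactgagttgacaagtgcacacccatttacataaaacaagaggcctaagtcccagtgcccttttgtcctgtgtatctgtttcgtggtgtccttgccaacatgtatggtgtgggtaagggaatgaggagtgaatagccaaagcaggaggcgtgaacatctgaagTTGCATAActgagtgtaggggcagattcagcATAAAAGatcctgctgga
Cyp2b3: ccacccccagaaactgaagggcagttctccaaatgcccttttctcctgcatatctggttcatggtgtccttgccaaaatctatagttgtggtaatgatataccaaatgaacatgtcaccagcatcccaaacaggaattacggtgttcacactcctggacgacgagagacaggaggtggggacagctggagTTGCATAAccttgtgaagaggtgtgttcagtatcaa
Cyp2b12: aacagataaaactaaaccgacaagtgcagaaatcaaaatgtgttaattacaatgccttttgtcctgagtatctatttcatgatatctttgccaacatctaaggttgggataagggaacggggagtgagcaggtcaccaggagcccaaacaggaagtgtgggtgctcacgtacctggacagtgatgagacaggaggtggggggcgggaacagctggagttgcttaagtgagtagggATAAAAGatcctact
Cyp2b21: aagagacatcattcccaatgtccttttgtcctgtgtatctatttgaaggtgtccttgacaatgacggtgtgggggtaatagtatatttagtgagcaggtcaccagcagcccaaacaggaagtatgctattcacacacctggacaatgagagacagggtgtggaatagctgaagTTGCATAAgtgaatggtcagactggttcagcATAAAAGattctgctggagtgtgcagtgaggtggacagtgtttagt

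The windows of Cyp2b1 and Cyp2b2 were 96.2% identical over 212 aligned bases. The other pairs aligned over 138 to 193 bases at 72.9% to 79.1% identity. In the last 212 bases of each window, searched on both strands, TTGCATAA was present in 4 of 5 genes, with Cyp2b12 lacking it, and in 0.666% of the 33469 rat promoters of the same length in that table. ATAAAAG was present in 4 of 5, with Cyp2b3 lacking it, and in 4.5% of all promoters. A run of G and C bases, GGGGCGG, which resembles an Sp1 site, was in 2 of 5 (Cyp2b1 and Cyp2b12) and in 17.8% of all promoters. These 3 runs were chosen after the sequences had been read. The nuclear receptor half-site AGGTCA was in 2 of 5 (Cyp2b12 and Cyp2b21) and in 12.1% of all promoters. Both of the direct repeats with a spacer of 4 bases that were searched, the DR4 motifs known from CAR binding, were in 0 of 5 and 0% of all promoters. The distal enhancer through which CAR is known to act on the rat Cyp2b genes lies outside these windows. A match of letters describes a sequence and does not show a bound site.

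Cyp2b2 was higher in PFOS rats on both of its probes. It encodes one of the major phenobarbital-inducible cytochromes of rat liver. On its brighter probe, A_64_P006590, the scanner's Cy5 signal was 95130, 107629, 87721 and 47236 units on the arrays of PFOS rats 1 to 4, against 2103, 1742, 1698 and 1038 units on those of control rats 1 to 4. The groups did not overlap, and the dimmest PFOS array was above every control array. In normalized Cy5 the groups did not overlap at 5 of the 6 family probes, where 13.4% of all tested features did not. After quantile normalization between arrays the Cy5 values were 16.20, 16.46, 16.80 and 15.82 on the log2 scale in PFOS rats, against 10.74, 10.41, 10.74 and 10.41 in control rats. The means were 16.32 ± 0.42 in PFOS rats and 10.58 ± 0.19 in control rats (SD, n = 4 each). The difference in Cy5 was 5.74 on the log2 scale (SE 0.23), or 53.6-fold.

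The ratio to the common pool gave a smaller change for the same probe. The log2 ratio of Cy5 over Cy3, after background correction and loess normalization, was 9.34, 9.17, 9.32 and 9.20 in PFOS rats, against 5.77, 5.58, 5.74 and 5.47 in control rats. The difference was 3.62 (SE 0.08), or 12.3-fold, and in the ratio the groups did not overlap at 3 of the 6 probes, where 12.8% of all features did not. The Cy3 channel, which held the same RNA on every array, was itself brighter at this probe on PFOS arrays. Its raw signal was 351, 456, 590 and 317 units on PFOS arrays, against 93, 85.5, 93 and 85.3 units on control arrays, and on the normalized scale it differed by 1.90 (SE 0.20). In Cy3 the groups did not overlap at 3 of the 6 probes, where 2.39% of all features did not. Above local background the mean Cy3 signal was 399 units on PFOS arrays and 59.9 on control arrays, while the mean Cy5 signal was 84352 units on PFOS arrays and 1569 on control arrays. Cy3 above background therefore came to 0.337% to 0.639% of Cy5 on PFOS arrays and 3.01% to 5.96% on control arrays. The part of this Cy3 difference in the ratio's smaller fold was not tested.

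**Figure D1:**
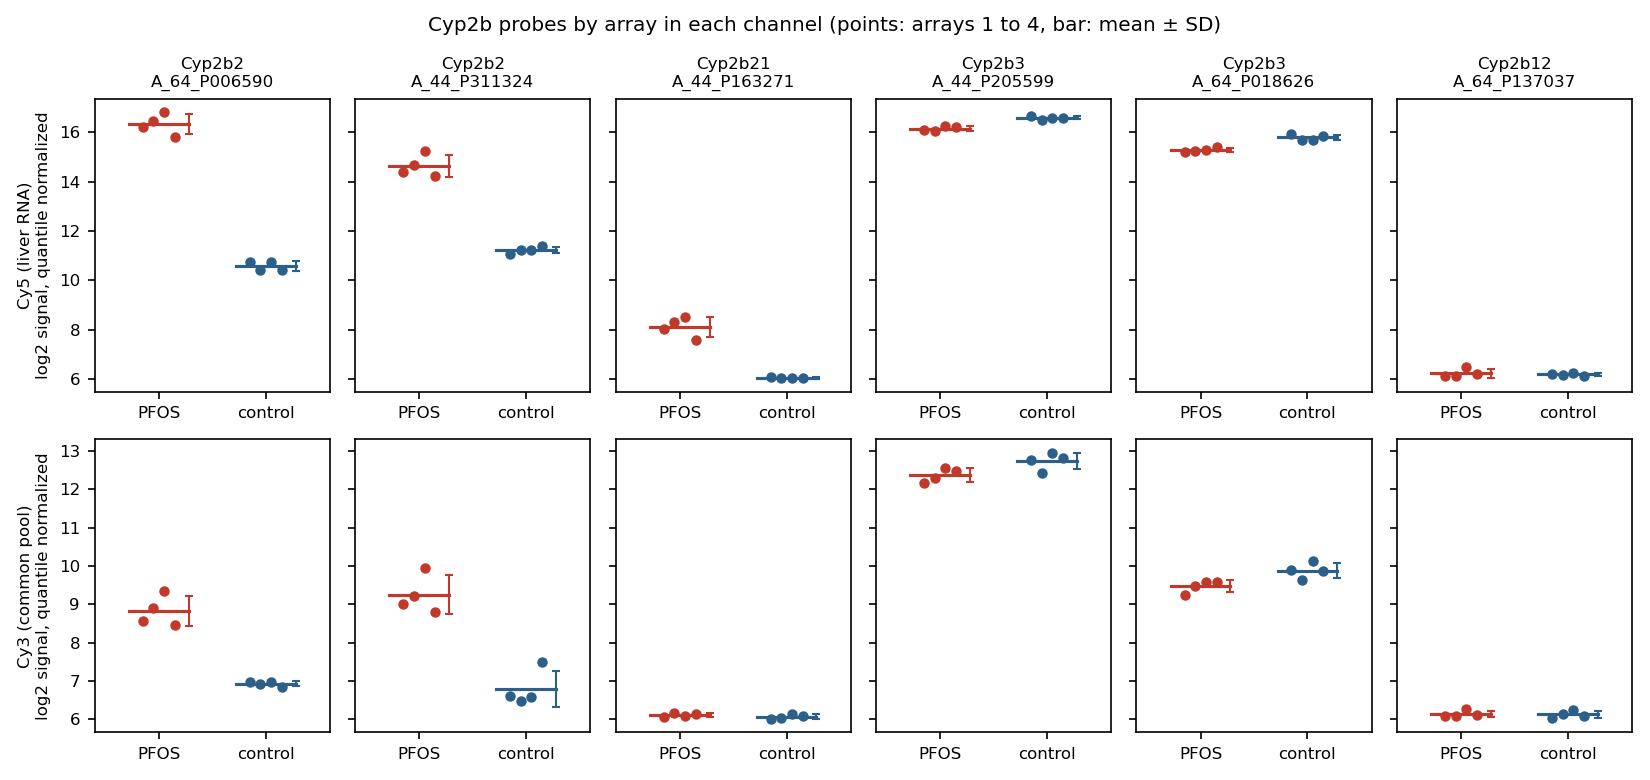
Quantile-normalized log2 signals of the 6 Cyp2b probes on each array, Cy5 (liver RNA) above and Cy3 (common pool) below, with PFOS rats in red and control rats in blue. Points are rats 1 to 4 from left to right, lines are group means and bars are SD. Both Cyp2b2 probes are higher in PFOS rats in both channels, Cyp2b21 in Cy5, and both Cyp2b3 probes are lower in Cy5.

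The second Cyp2b2 probe, A_44_P311324, gave the same direction in each channel and a much smaller change in the ratio. Its raw Cy5 signal was 28089, 32005, 28880 and 15291 units in PFOS rats, against 2676, 3135, 2387 and 2003 units in control rats. Normalized Cy5 averaged 14.63 ± 0.44 in PFOS rats and 11.23 ± 0.13 in control rats (SD, n = 4 each), a difference of 3.40 (SE 0.23), or 10.6-fold. The log2 ratio was 7.21, 7.18, 7.12 and 7.32 in PFOS rats, against 6.45, 6.90, 6.66 and 5.83 in control rats. That is a difference of 0.75 (SE 0.23), or 1.68-fold. Cy3 at this probe differed by 2.45 (SE 0.35), with raw signals of 405 to 928 units on PFOS arrays and 54.5 to 204.5 units on control arrays. Above local background Cy3 was 34.25, 26.5, 33 and 177 units on the arrays of control rats 1 to 4, beside a normexp offset of 50.

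The sign of the ratio at this second probe depended on the processing, and without background subtraction the change was 0.46. With the scanner software's processed signals, to which no loess was applied here, it was -0.97, and with a normexp offset of 0 it was -0.38. The brighter probe kept its direction under both, at 2.31 and 2.75. The 2 spots of the second probe also disagreed on control 4, where Cy3 was 347 units in one and 62 units in the other and the log2 ratios lay 2.11 apart. The next widest gap between its 2 spots was 0.82, on control 1. Without that odd spot, a choice made after its value was seen, the change was 0.48.

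Cyp2b21, a family member known also from extrahepatic tissues, was above background in PFOS rats only. Its 1 probe, A_44_P163271, was well above background in Cy5 on 4 of 4 PFOS arrays and on 0 of 4 control arrays. The raw Cy5 signal was 346, 394, 270.5 and 164 units in PFOS rats, against 74.75, 74.5, 73 and 74 units in control rats, close to their local background. Normalized Cy5 was 8.05, 8.34, 8.51 and 7.60 in PFOS rats, against 6.11, 6.05, 6.07 and 6.04 in control rats. On this scale the means differed by 2.06, or 4.16-fold, against control values at background. With loess before a between-array quantile normalization (Aquantile), the level in PFOS rats was at least 5.43-fold higher than in control rats, where the control level is taken as the lowest signal well above background on each array or the probe's own signal, whichever was higher. This bound holds for that normalization only, and the 4.16-fold of Cy5 alone lies below it. The control level can be the signal of another probe, and no dyes were swapped. The log2 ratio was 3.39, 3.25, 3.26 and 1.98 in PFOS rats, against 0.16, 0.08, 0.01 and 0.03 in control rats. Cy3 at this probe stayed between 33 and 39 units on all arrays, and differed by 0.05 (SE 0.04) on the log2 scale.

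Cyp2b3, a family member known in the rat as little responsive to phenobarbital, was bright in both groups and did not follow Cyp2b2. On probe A_44_P205599 the raw Cy5 signal was 90689, 83668, 60772 and 66389 units in PFOS rats, against 119762, 113571, 97901 and 80152 units in control rats. Normalized Cy5 averaged 16.14 ± 0.10 in PFOS rats and 16.58 ± 0.07 in control rats (SD, n = 4 each), with no overlap and a difference of -0.44 (SE 0.06). The log2 ratio averaged 5.57 ± 0.07 in PFOS rats and 5.58 ± 0.12 in control rats, a difference of -0.01 (SE 0.07), and the groups overlapped. The second probe, A_64_P018626, which has 1 spot per array, did likewise, with a difference of -0.50 (SE 0.07) in Cy5 and -0.03 (SE 0.11) in the ratio. Cy3 was lower on PFOS arrays as well, by -0.36 (SE 0.14) at the first probe and -0.41 (SE 0.13) at the second. Cy5 and Cy3 thus differed in the same direction between groups at all 4 probes of Cyp2b2 and Cyp2b3.

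**Figure D2:**
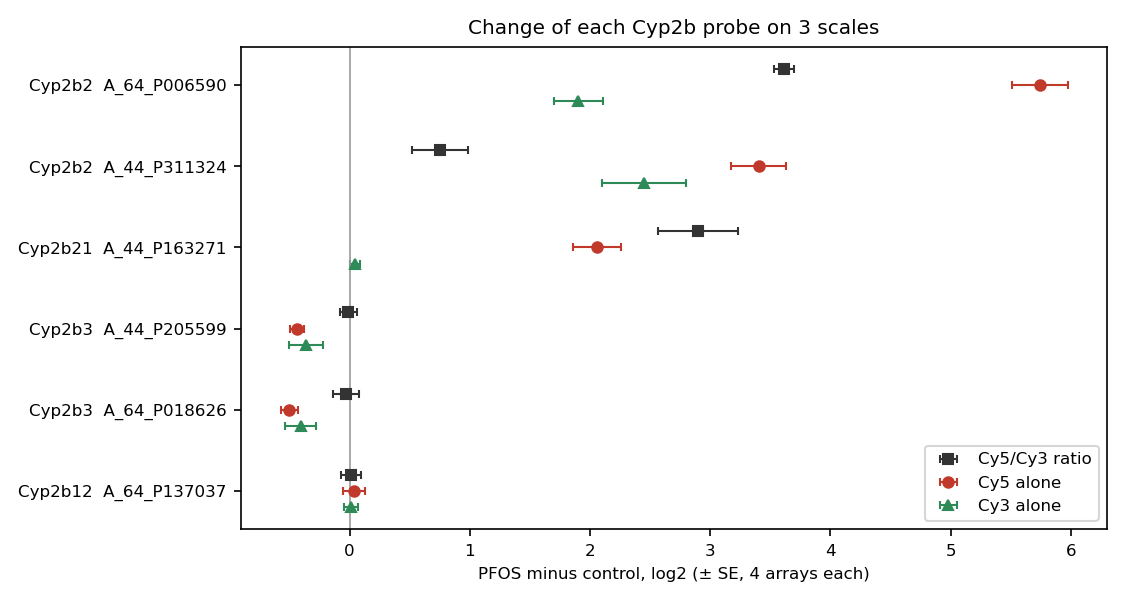
Difference between PFOS and control rats for each Cyp2b probe on the log2 scale, as the Cy5/Cy3 ratio (squares), Cy5 alone (circles) and Cy3 alone (triangles), with SE bars and 4 arrays per group. The Cyp2b2 probes differ by 3.62 and 0.75 in the ratio, 5.74 and 3.40 in Cy5, and 1.90 and 2.45 in Cy3.

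Cyp2b12, known in the rat as a cytochrome of skin sebaceous glands, was at background, with 0 of 8 arrays well above it. Its probe A_64_P137037 had Cy5 signals of 71 to 86 units in PFOS rats and 74.5 to 81 units in control rats, and no fold is given. Cyp2b1, the other major phenobarbital-inducible form, had no probe that mapped to it by accession. Its messenger is known to be nearly identical to that of Cyp2b2, so its RNA may contribute to the Cyp2b2 probes, and the 2 cannot be told apart here. Cyp2b15, a further family gene outside the chosen 5, had 1 probe that was well above background on 0 of 8 arrays.

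In all, 5 of the 6 probes passed the filter on dim signals, which asked for Cy5 well above background on at least 4 of 8 arrays, and 1 probe each stood for 3 genes in the fit across 15203 genes and features. Cyp2b21 passed only through its PFOS arrays, so the filter favoured its call. In the ratio, 2 of these 3 genes, Cyp2b2 and Cyp2b21, were called higher and 0 lower (limma, adjusted p under 0.05), where 1.83% of all features were called higher and 2.14% lower. In Cy5 alone, 2 were called higher, where 2.22% of all features were, and Cyp2b3 was called lower, where 2.47% were. In Cy3 alone 1 was called, Cyp2b2, where 0.0789% of all features were. The family was chosen from this contrast, so these counts describe it and support nothing further.

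The PFOS arrays differed from each other at the Cyp2b probes. At both Cyp2b2 probes and at Cyp2b21, normalized Cy5 was highest in PFOS 3 and lowest in PFOS 4, although the raw signal was highest in PFOS 2. At the brighter Cyp2b2 probe the SD of Cy5 was 0.42 among PFOS rats and 0.19 among control rats, against medians of 0.13 and 0.13 over all tested features. Cy3, the common pool, was in the same order at that probe, at 9.35 on PFOS 3, 8.92 on PFOS 2, 8.57 on PFOS 1 and 8.47 on PFOS 4, with an SD of 0.40 at the 99th percentile of tested features. Its part in the Cy5 order was not tested. The ratio did not show this spread at Cyp2b2, with an SD of 0.09 among PFOS rats and 0.14 among control rats. At Cyp2b21 PFOS 4 was also lowest in the ratio. Among the 12 other CAR and PXR target genes that rose (described next), PFOS 4 was lowest in Cy5 for 10 and PFOS 1 highest for 9. This order was looked at after the values had been seen, and PFOS 3 and 4 shared slide row 2.

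Among genes outside the family that CAR or PXR are known to induce, several rose and none fell in PFOS rats. Of 31 listed genes, 26 were tested, 12 rose, 0 fell and 14 were not called (limma, Benjamini-Hochberg adjusted p under 0.05), where 3.97% of all features were called. At an unadjusted p under 0.05 (limma), 16 were higher and 0 lower, where 9% of all features were higher and 10.9% lower. Their median log2 change was 0.93, against -0.01 over all features. In Cy5 alone, 15 rose and 0 fell, where 4.69% of all features were called, and the median was 1.12. The list was written with earlier results of these data known, so its count is a description.

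Among the oxidation enzymes and their partners, 8 of 13 tested genes rose. Ces2c, a carboxylesterase, had a log2 ratio of 4.15 ± 0.27 in PFOS rats and 1.27 ± 0.42 in control rats (SD, n = 4 each), a change of 2.88 (SE 0.21, limma adjusted p = 0.00032). Aldh1a1, a retinaldehyde dehydrogenase, rose by 1.82 (SE 0.14, limma adjusted p = 0.00032). Alas1, which catalyses the rate-limiting step of haem synthesis and so supplies the cytochromes' cofactor, averaged 4.40 ± 0.28 in PFOS rats and 2.84 ± 0.40 in control rats, a change of 1.56 (SE 0.21, limma adjusted p = 0.00455). Por, the reductase that passes electrons to microsomal cytochromes, rose by 1.11 (SE 0.21, limma adjusted p = 0.0205).

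The Cyp3a enzymes, the classical PXR targets, rose at 3 of 5 tested genes. Cyp3a23-3a1 averaged 10.13 ± 0.35 in PFOS rats and 8.68 ± 0.55 in control rats (SD, n = 4 each), which is 1.46 higher in PFOS rats (SE 0.27, limma adjusted p = 0.0205). Cyp3a2 rose by 0.99 and Cyp3a62 by 0.94. These 3 calls depended on the processing. Of 13 planned settings other than leaving out an array, Cyp3a23-3a1 lost its call in 4, Cyp3a2 in 4 and Cyp3a62 in 6. All 3 calls were lost with processed signals (limma adjusted p = 0.387, 0.225 and 0.0659 for Cyp3a23-3a1, Cyp3a2 and Cyp3a62) and with a normexp offset of 0. Cyp3a9, at 1.66 (SE 0.41, limma adjusted p = 0.0572), and Cyp3a18, at 0.61, were not called in the ratio. In Cy5 alone Cyp3a9 was called (1.69, limma adjusted p = 0.0427) and Cyp3a18 was not. Ephx1, the microsomal epoxide hydrolase, rose by 0.92 (SE 0.11, limma adjusted p = 0.00309).

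Of the conjugation enzymes, 2 of 9 tested rose. Ugt2b1, a glucuronosyltransferase, had log2 ratios of 9.12, 8.80, 9.02 and 9.02 in PFOS rats, against 6.03, 6.32, 7.42 and 4.16 in control rats. The groups did not overlap and the control rats were widely spread. Its change was 3.01 (SE 0.55, limma adjusted p = 0.0199). The call was lost without PFOS 1, without PFOS 3 or without control 1 (limma adjusted p = 0.0544, 0.0555 and 0.0575). Ugt1a6, which glucuronidates small phenols, rose by 1.59 (SE 0.25, limma adjusted p = 0.00874). The glutathione transferases Gsta2, Gsta3, Gsta5, Gstm1 and Gstm2 had values of 0.21 to 0.96 and were not called in the ratio. Of these, only Gsta5 was called in Cy5 alone (0.60, limma adjusted p = 0.0445). Of the genes for transport, growth and other roles, 2 of 4 tested rose, namely Akr7a3, an aflatoxin aldehyde reductase, by 1.21, and Gadd45b, a stress response gene known to be induced through CAR, by 1.05.

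**Figure D3:**
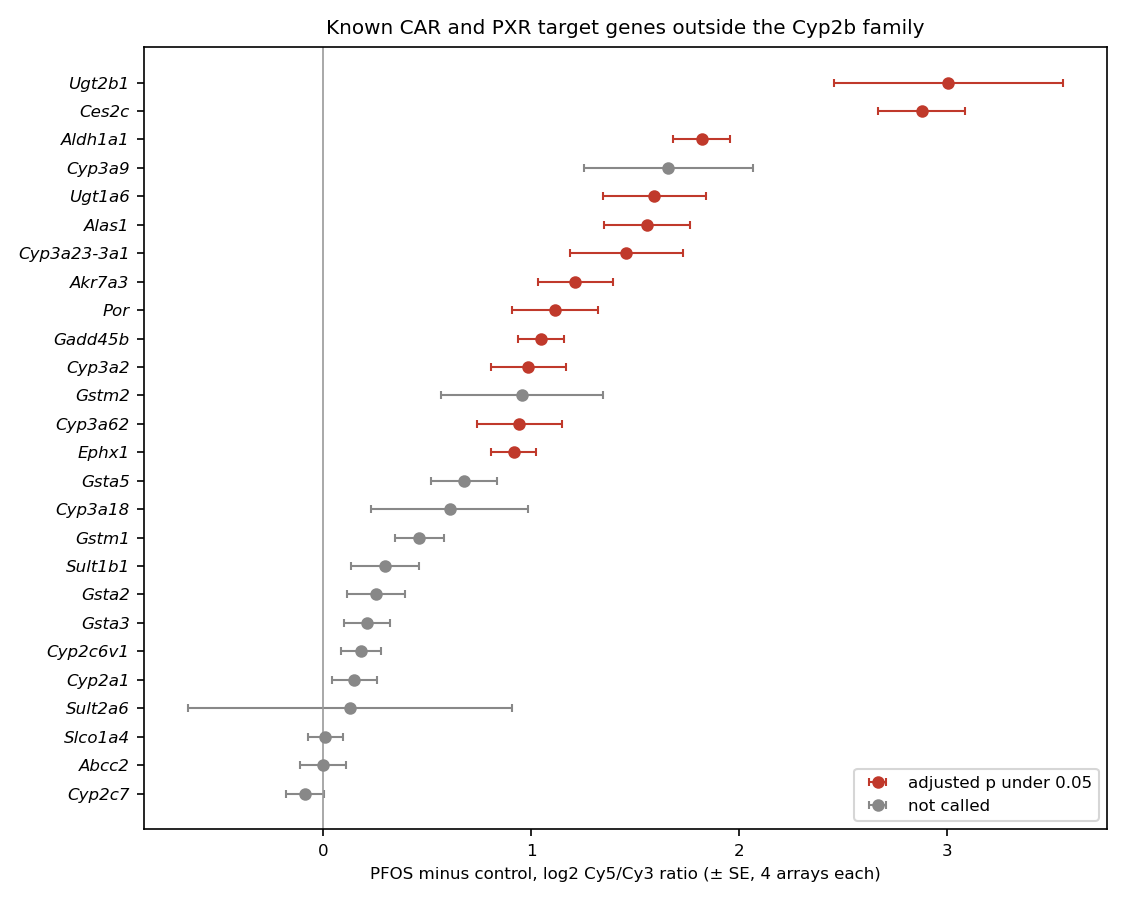
Log2 change of the Cy5/Cy3 ratio, PFOS minus control, with SE bars, for the 26 tested CAR and PXR target genes outside the Cyp2b family, 4 arrays per group. The 12 called genes, in red, lie between 0.92 and 3.01, and 24 of the 26 values are above 0.

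The receptors themselves and their partners were not called. Of 18 tested genes that regulate CAR or work with it, 0 rose and 0 fell in the ratio, and 0 in Cy5 alone (limma). Of all features, 3.97% were called in the ratio and 4.69% in Cy5, so 0 of 18 is near those shares. At an unadjusted p under 0.05 (limma), 4 were higher and 1 lower in the ratio, where 9% of all features were higher and 10.9% lower. In Cy5, 5 were higher and 1 lower at that threshold, and the share of all features was not computed. Nr1i3, which encodes CAR, had log2 ratios of 5.80, 5.48, 6.31 and 5.08 in PFOS rats, against 4.87, 3.66, 5.32 and 3.21 in control rats. PFOS 4 lay below control 3, so the groups overlapped. Its change was 1.40 (SE 0.46, limma adjusted p = 0.132), and its second probe gave 1.68. Nr1i2, which encodes PXR, differed by -0.07 (SE 0.08) and Rxra, a heterodimer partner of both, by 0.05 (SE 0.13).

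Among other Cyp2 genes, Cyp2j4 and Cyp2c22 rose. They were 2 of 21 tested, or 9.52%, where 1.83% of all features were called higher, and 0 fell in the ratio (limma). At an unadjusted p under 0.05, 4 were higher and 3 lower, against the 9% and 10.9% of all features given above. The largest ratio change of the list was that of Cyp2c12, at -2.14 (SE 0.57, limma adjusted p = 0.0792), which was not called. In Cy5 alone, 3 genes of the list were called higher and 2 lower (limma), where 2.22% and 2.47% of all features were. Cyp2j4, an arachidonic acid epoxygenase, averaged 7.46 ± 0.34 in PFOS rats and 5.94 ± 0.08 in control rats (SD, n = 4 each), a change of 1.52 (SE 0.15, limma adjusted p = 0.00145). Cyp2c22 rose by 1.06 (SE 0.16, limma adjusted p = 0.00874), and its call was lost with a normexp offset of 0 (0.75, limma adjusted p = 0.268). Cyp2c6v1, known as a phenobarbital-inducible Cyp2c form, depended on the channel. Its ratio differed by 0.18 (SE 0.10, limma adjusted p = 0.328), while Cy5 alone rose by 1.39 (SE 0.14, limma adjusted p = 0.00106) and Cy3 differed by 1.16. Cyp2c7 and Cyp2a1 differed by -0.09 and 0.15 in the ratio and were not called.

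On chromosome 1 the Cyp2b genes lie between Cyp2s1 on one side and Cyp2g1, Cyp2a3, Cyp2a1 and Cyp2a2 on the other. Of the neighbours, 6 were tested (Ccdc97, Hnrnpul1, Axl, Cyp2s1, Cyp2a1 and Cyp2a2), and 0 were called in the ratio or in Cy5 alone (limma). Of all features, 3.97% were called in the ratio and 4.69% in Cy5, so 0 of 6 is near those shares. At an unadjusted p under 0.05 there were 0 in the ratio, where 9% of all features were higher and 10.9% lower, and 1 in Cy5. The log2 ratio changes of the 6 neighbours were between -0.02 and 0.20. Within the cluster, Cyp2b2 and Cyp2b21 lie on either side of Cyp2b3, whose ratio differed by -0.01.

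Of 15203 tested features, 9619 had a gene symbol. Among these, outside the family, the 6 with profiles over 8 arrays nearest to that of Cyp2b2 were Cidea, Ces2c, Hdc, Cib2, Ugt2b1 and Colq. Nearness was the root mean square distance between log2 ratios after subtracting each gene's control mean, and it was 0.60 for Cidea, 0.62 for Ces2c and 0.72 to 0.90 for the other 4. Cidea, a lipid droplet protein, averaged 3.79 ± 0.23 in PFOS rats and 0.97 ± 0.21 in control rats (SD, n = 4 each). Hdc makes histamine and Colq anchors acetylcholinesterase. Of the 6, Ces2c and Ugt2b1 were also on the CAR and PXR target list. A gene with a change of a similar size is near by this measure whatever its function. The measure used the ratio, in which Cyp2b2 changed by 3.62. In Cy5 alone Cyp2b2 changed by 5.74 and these 6 genes by 1.66 to 3.98.

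The brightening of Cy3 at Cyp2b2 was uncommon across the array. Of 15203 features, each with 1 probe, 12 differed in Cy3 (limma, adjusted p under 0.05), and at all 12 Cy5 differed in the same direction. Among these probes that of Cyp2b2, at 1.90, had the second largest change after that of Ehhadh, a peroxisomal enzyme, at 2.14. The second Cyp2b2 probe, at 2.45, did not stand for the gene in that fit. Of 25 features whose Cy5 was higher by at least 2 on the log2 scale, Cy3 was above 0 in 20 and higher by at least 1 in 4. Their median Cy3 change was 0.14, against 0.001 over all features. This was looked at after the values of Cyp2b2 had been seen.

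Liver cell type markers are given beside these results. The summed Cy5 level of 10 hepatocyte markers was 1409840 to 1523100 in PFOS rats and 1573520 to 1673500 in control rats, and 1 of them, Ahsg, fell in the ratio (by 0.91, SE 0.13, limma adjusted p = 0.00596), while 3 fell in Cy5 alone. No gene of the Kupffer, sinusoidal endothelium, stellate, cholangiocyte, lymphocyte, pericentral or periportal lists was called in the ratio. The 5 sinusoidal endothelium markers had summed Cy5 levels of 6972 to 9860 in PFOS rats and 9316 to 16253 in control rats. The 8 Kupffer markers summed to 22169 to 37039 in PFOS rats and 25657 to 42030 in control rats, and the 7 pericentral markers summed to 50402 to 71020 in PFOS rats and 46690 to 68411 in control rats. The ranges overlapped for the endothelial, Kupffer and pericentral lists, whereas the hepatocyte ranges above did not overlap and were lower in PFOS rats. The hepatocyte markers did not move together in Cy5. Their log2 changes ran from -1.80 at Apoa1 to 0.96 at Tat, with a median of 0.03 over the 10 markers. In the ratio, 0 of the 8 Kupffer and 0 of the 5 endothelial markers had a change above 0, while 4 of the 4 cholangiocyte markers did. The other lists were mixed, with changes above 0 in 3 of 10 hepatocyte, 2 of 7 pericentral and 3 of 8 periportal markers. The same held for 3 of 7 stellate and 1 of 5 lymphocyte markers. The median change over all features was -0.01. The 8 periportal markers (1 fell in Cy5 alone) summed to 137024 to 169627 in PFOS rats and 145348 to 179321 in control rats, and the 7 stellate markers summed to 8549 to 9532 in PFOS rats and 8689 to 11329 in control rats. The 4 cholangiocyte markers summed to 1148 to 1382 in PFOS rats and 935 to 1163 in control rats, and the 5 lymphocyte markers summed to 1296 to 1731 in PFOS rats and 1547 to 1575 in control rats. The part of these levels in the Cyp2b result was not tested.

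**Figure D4:**
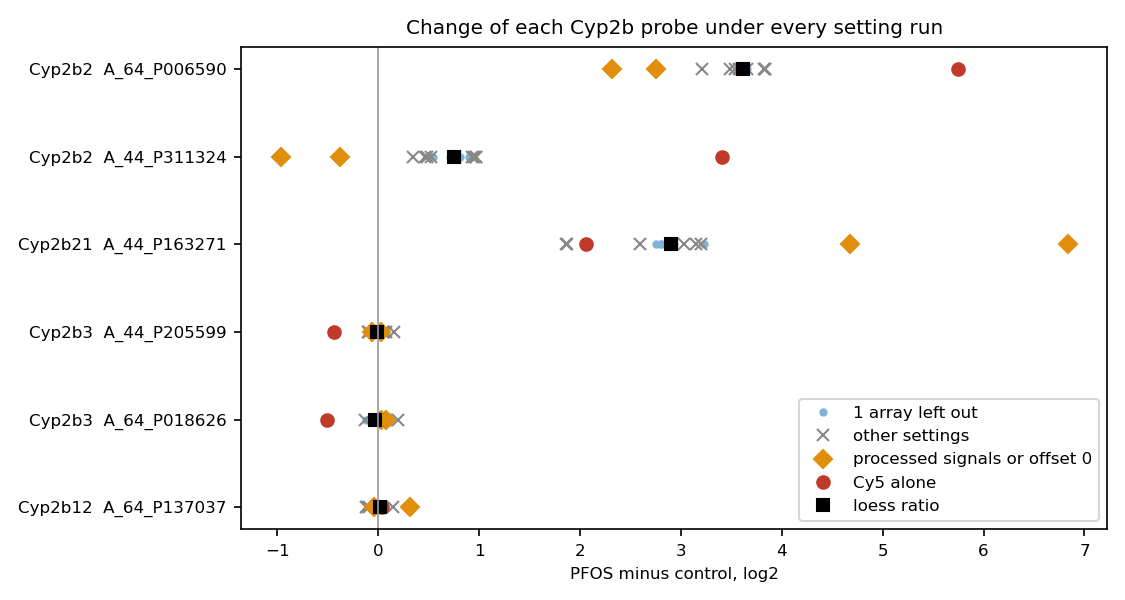
PFOS minus control change of each Cyp2b probe on the log2 scale under every setting run, with the loess ratio as black squares, Cy5 alone as red circles, processed signals or a normexp offset of 0 as orange diamonds, and arrays left out as small blue points. The brighter Cyp2b2 probe lies between 2.31 and 5.74, the second Cyp2b2 probe between -0.97 and 3.40, and Cyp2b21 between 1.86 and 6.83, a range set against control values at background, from which only the direction is read.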

How the data were processed

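Two-colour Agilent arrays of 8 rat livers were analysed, 4 PFOS and 4 control, with groups taken from the sample labels. Spot intensity was deposited as median signals and backgrounds of both channels, from Agilent Feature Extraction (version 10.7.3.1 in the submitters' processing notes). The deposited log10 ratios of processed Cy5 over Cy3, per the file headers, were not used. In the value table the authors deposited, log2 ratios are given and their method is not given in the sources used here. It correlated at 0.995 to 0.997 with loess ratios without background subtraction, with medians of -0.061 to -0.048 per array, and how it was centred is unknown.

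Median signals were corrected with normexp (offset 50) and normalized by loess within arrays with limma 3.58.1 in R 4.3.3, control spots at weight 0. Outlier spots (733 to 991 per array) were left out, and spots of 1 probe were averaged. A probe was kept if a share of 0.5 or more of its spots passed the scanner's background test in Cy5, on 4 or more of 8 arrays (16952 probes), and the brightest probe stood for a gene. The fit used lmFit and eBayes, two-sided, with Benjamini-Hochberg adjustment. Single channels were normexp corrected and quantile normalized between arrays. The steps were tested on simulated data.

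Probes were named through RefSeq accessions of GRCr8 (18004 of 30367 had a symbol). Named genes were all family probes, called members of the CAR, PXR and Cyp2 lists, a few receptors and enzymes whatever their p, chromosome neighbours and the 6 nearest profiles. Others, such as Cyp3a9, Cyp3a18, Cyp2c12, the glutathione transferases, Ehhadh, Ahsg, Apoa1 and Tat, were added after their values were seen. The members, the lists and some settings were chosen with earlier results of these data known. The share of spots required and the form of median centring were changed after a first run, so that both followed an earlier account of these data. The first forms are reported among the alternatives. P-values weigh the difference between diets against the spread between these arrays, in which a rat and its array cannot be told apart.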

Additional observations from a re-analysis of the deposited data

Results flagged for a closer look

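Of 94 sets of 4 arrays looked at, 6 held 1 array far from the other 3, where chance gives about 5%. In Cy3 at the second Cyp2b2 probe, control 4 was at 7.5 and the other control arrays at 6.48 to 6.62. In the ratio of Cyp2b21, PFOS 4 was at 1.98 and the other PFOS arrays at 3.25 to 3.39. In the ratio of Cyp2b3 at probe A_64_P018626, control 3 was at 7.33 and the others at 7.67 to 7.72. In Cy3 at Cyp2b12, which was at background, PFOS 3 was at 6.26 and the others at 6.09 to 6.1. In the ratio of Gadd45b, control 1 was at -2.04 and the others at -2.35 to -2.33. In the ratio of Hdc, control 4 was at 1.07 and the others at -0.917 to -0.689.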

How the results depend on the processing

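The brighter Cyp2b2 probe and Cyp2b21 stayed higher in PFOS rats under every setting in which they had a value (23 and 22 settings), at 2.31 to 5.74 and 1.86 to 6.83. Control values of Cyp2b21 were at background, so only its direction is read. The second Cyp2b2 probe turned negative with processed signals (-0.97) and with offset 0 (-0.38), and the cause was not tested. The Cyp2b3 probes ran from -0.44 to 0.15 and from -0.50 to 0.19, and Cyp2b12 from -0.12 to 0.31. The number of features called was 604. It was 239 with median centring, 331 with scaling between arrays, and 268 with a block for slide column, which leaves fewer degrees of freedom. Leaving out 1 array gave 350 to 519, and 350, 361, 363, 369, 381 and 387 without control 1, PFOS 3, control 2, PFOS 1, control 3 and PFOS 2. Slide rows 1 and 2 alone, with fewer arrays and added after the data were seen, called 93 and 32 features and 4 and 3 of the CAR and PXR targets, which otherwise numbered 9 to 15. Left-out arrays gave 8 to 13 of these targets, with 8 without PFOS 3.

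Centring each array on the median of its averaged probes, the form run first, called 115 features, with 60.9% of them higher against 46.0% with loess, and 9 targets. Requiring a share of spots above 0.5 rather than 0.5 or more, also run first, kept 16379 probes and called 607. The 18 called genes named outside the family had 449 values under other settings, of which 390 kept the call, 59 lost it and 0 reversed. The 11 named genes not called had 273, and 1 gained a call (Cyp2c6v1 in Cy5 alone). Besides the slide rows alone, Por lost its call with either median centring, with the column block and without PFOS 2, control 3 or control 4. Beside processed signals and offset 0, Cyp3a62 lost it without background subtraction (adjusted p = 0.0674), with either median centring (0.0761, and 0.206 in the first form), in the authors' deposited table (0.068), with the column block (0.0743) and without PFOS 2, PFOS 3 or any 1 control array. Cyp3a2 lost it with scaling (0.233) and with quantile normalization of ratios (0.15), Cyp3a23-3a1 with scaling (0.144) and in the authors' table (0.0516), and both without PFOS 1 or PFOS 3. Cyp2c22 lost it with offset 0, and Akr7a3 with the first form of median centring (0.0584). These adjusted p-values are limma's. No paired analysis was possible because the replicate numbers follow accession order and pair nothing. Dim signals limit Cyp2b21 in Cy5 in control rats and in Cy3 on all arrays, and Cyp2b12 in both groups. Cy3 was also dim at the second Cyp2b2 probe on most control arrays.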
